A study of Mus musculus with 2 samples.

Results

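The AP-1 immediate early genes described here are Fos, Fosb, Fosl2, Jun, Junb and Jund, taken by name, 6 of the 32285 genes counted. They were followed over 18 areas of 2 mouse brain sections, 1 section from each of 2 mice. Both mice expressed hM3Dq, an engineered receptor that excites neurons when the drug CNO binds it, and both were given CNO. The genotype label of mouse 1 was a C57BL/6J control and that of mouse 2 a CRISPR-Cas9 edited isogenic control. The injection lay 4.6 mm and the sections 1.9 mm posterior to bregma, so the sections did not hold the injection site. The series' text speaks of an ipsilateral side and says that the authors stained further sections for GFP and for c-Fos protein, which were not analysed here. The sources used here do not give the animals' age or sex, the promoter that drove hM3Dq, the time between CNO and dissection or the image side that was injected. No untreated section was analysed here, so each comparison is between areas or sides of treated mice, and nothing here measures a response to CNO.

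AP-1 is a transcription factor made of pairs of proteins that grip DNA through a basic region and hold each other through a leucine zipper. Fos-family proteins cannot pair with themselves and need a Jun partner, while Jun-family proteins can pair with either. Neuronal firing raises calcium and kinase signals that switch on Fos, Fosb and Junb within minutes through sites such as the cyclic AMP response element (CRE), and their RNA is short-lived. Jund is transcribed steadily in most cells, and Jun responds both to activity and to stress kinases. Fosl2 makes the protein Fra-2, a Fos relative without the strong activation domain of Fos.

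Each section was measured on the 10x Visium array, which captures polyadenylated RNA at barcoded spots and counts molecules by unique molecular identifiers (UMIs). A spot is a small piece of tissue that can hold several cells. Mouse 1 gave 30671753 UMIs over 3715 spots under tissue and mouse 2 gave 55315952 over 3549, so mouse 2 was the deeper section. Spots were put in areas by sets of marker genes that held none of the 6 genes, which placed 3440 and 3261 spots. Of 113 marker values, 111 in mouse 1 and 108 in mouse 2 were higher in their own area than elsewhere. The same markers placed the spots, so this count is no independent check of the areas. For 3 areas the name is taken from leading genes. The area chosen by layer 4 markers is Lamp5-Dkkl1 and that of CA2 and CA3 markers is Hpca-Neurod6, where genes outside the marker set led. That of CA1 markers is Spink8, which is itself in the CA1 set. Layer 5 keeps its name, but Lamp5, a marker of the upper layers, led it in both mice. Of its 7 markers, 7 in mouse 1 and 5 in mouse 2 were higher there than elsewhere. The leading genes of the medial hypothalamus were Oxt and Avp in mouse 1 and Gal and Dlk1 in mouse 2, and the meninges were led by Mgp and Dcn in mouse 1 and by hemoglobin genes in mouse 2. A spot's level cannot tell fewer cells of a type from less RNA per cell.

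The 5 promoters below belong to the genes that differed between cortical layers and thalamus: Fos, Fosb, Fosl2 and Junb were higher in cortex and Jun was lower. They are the 250 bases before the start site given in the RefSeq promoter table (GRCm38.p6, the assembly that mm10 names), read 5′ to 3′ on the gene's own strand. For Fosb that start site lies inside the annotated gene, so the last bases of its window overlap the gene, and its positions are counted from that site. The TGACG marked for Fosb lies in this overlap. The 5 windows lie at chr12:85473640-85473889 (+) for Fos, chr7:19310046-19310295 (-) for Fosb, chr5:32136222-32136471 (+) for Fosl2, chr8:84978749-84978998 (-) for Junb and chr4:95052223-95052472 (-) for Jun. Capitals mark matches, on either strand, to the CRE core letters TGACG, the AP-1-like letters TGACATCA and the TATA box letters TATAAA.
Fos: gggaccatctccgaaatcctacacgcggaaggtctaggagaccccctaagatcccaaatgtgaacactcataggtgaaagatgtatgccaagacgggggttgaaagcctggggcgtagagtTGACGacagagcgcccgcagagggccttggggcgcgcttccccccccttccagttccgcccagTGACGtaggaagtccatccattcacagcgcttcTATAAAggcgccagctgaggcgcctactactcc
Fosb: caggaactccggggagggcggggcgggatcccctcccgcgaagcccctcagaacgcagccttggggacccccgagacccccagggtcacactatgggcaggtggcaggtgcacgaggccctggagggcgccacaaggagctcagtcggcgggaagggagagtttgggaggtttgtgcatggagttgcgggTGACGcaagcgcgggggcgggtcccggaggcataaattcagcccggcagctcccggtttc
Fosl2: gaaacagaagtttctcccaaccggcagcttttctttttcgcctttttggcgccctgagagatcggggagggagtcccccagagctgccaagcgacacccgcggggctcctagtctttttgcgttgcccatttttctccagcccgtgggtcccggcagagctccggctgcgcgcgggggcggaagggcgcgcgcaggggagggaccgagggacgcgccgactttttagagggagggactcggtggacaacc
Junb: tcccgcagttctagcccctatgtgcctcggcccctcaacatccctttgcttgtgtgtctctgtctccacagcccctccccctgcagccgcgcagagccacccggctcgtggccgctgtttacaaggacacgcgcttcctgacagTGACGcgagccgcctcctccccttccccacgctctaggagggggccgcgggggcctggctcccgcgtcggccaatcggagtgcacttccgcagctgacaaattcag
Jun: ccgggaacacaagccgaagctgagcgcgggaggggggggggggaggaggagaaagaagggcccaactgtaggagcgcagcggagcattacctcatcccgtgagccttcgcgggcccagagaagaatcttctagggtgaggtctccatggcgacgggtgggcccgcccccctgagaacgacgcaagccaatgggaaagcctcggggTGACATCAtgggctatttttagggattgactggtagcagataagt
TGACG, which the full CRE also contains, was in Fos 129 and 66 bases before the start, in Fosb 60 before it and in Junb 106 before it. It occurs in 17.8% of 32851 RefSeq promoter windows of this length. Fos also held TATAAA, found in 12.4% of windows, 33 bases before its start. Jun held TGACATCA, found in 2.93% of windows, 45 bases before its start. The full CRE (TGACGTCA, 1.55% of windows), the AP-1 site (TGACTCA, 4.46%) and the CArG box bound by serum response factor (1.47%) matched none of the 6 windows, and the windows of Fosl2 and Jund held no match to any motif searched. Bases outside these windows were not searched, so a motif without a match here can lie farther from the start. A match is a string of letters and no binding was measured.

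Over whole sections Fos (ENSMUSG00000021250, chr12:85473890-85477274) had 371 UMIs in mouse 1 and 687 in mouse 2, or 12.1 and 12.4 CPM (UMIs of the gene per 1000000 UMIs of all genes). Fosb (ENSMUSG00000003545, chr7:19302696-19310118) was the sparsest, with 76 and 138 UMIs. Fosl2 (ENSMUSG00000029135, chr5:32136472-32157840) had 152 and 338 UMIs, and Junb (ENSMUSG00000052837, chr8:84976909-84978748) had 221 and 515. Both are thinly sampled, so single areas rest on few molecules. Jun (ENSMUSG00000052684, chr4:95049036-95052222) had 1137 and 2558 UMIs, or 37.1 and 46.2 CPM. Jund (ENSMUSG00000071076, chr8:70697739-70700616) had 3671 and 5665 UMIs, or 119.7 and 102.4 CPM. These totals are UMIs with no length correction, and beyond naming Fosb as the sparsest they are not compared between genes.

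**Figure D1:**
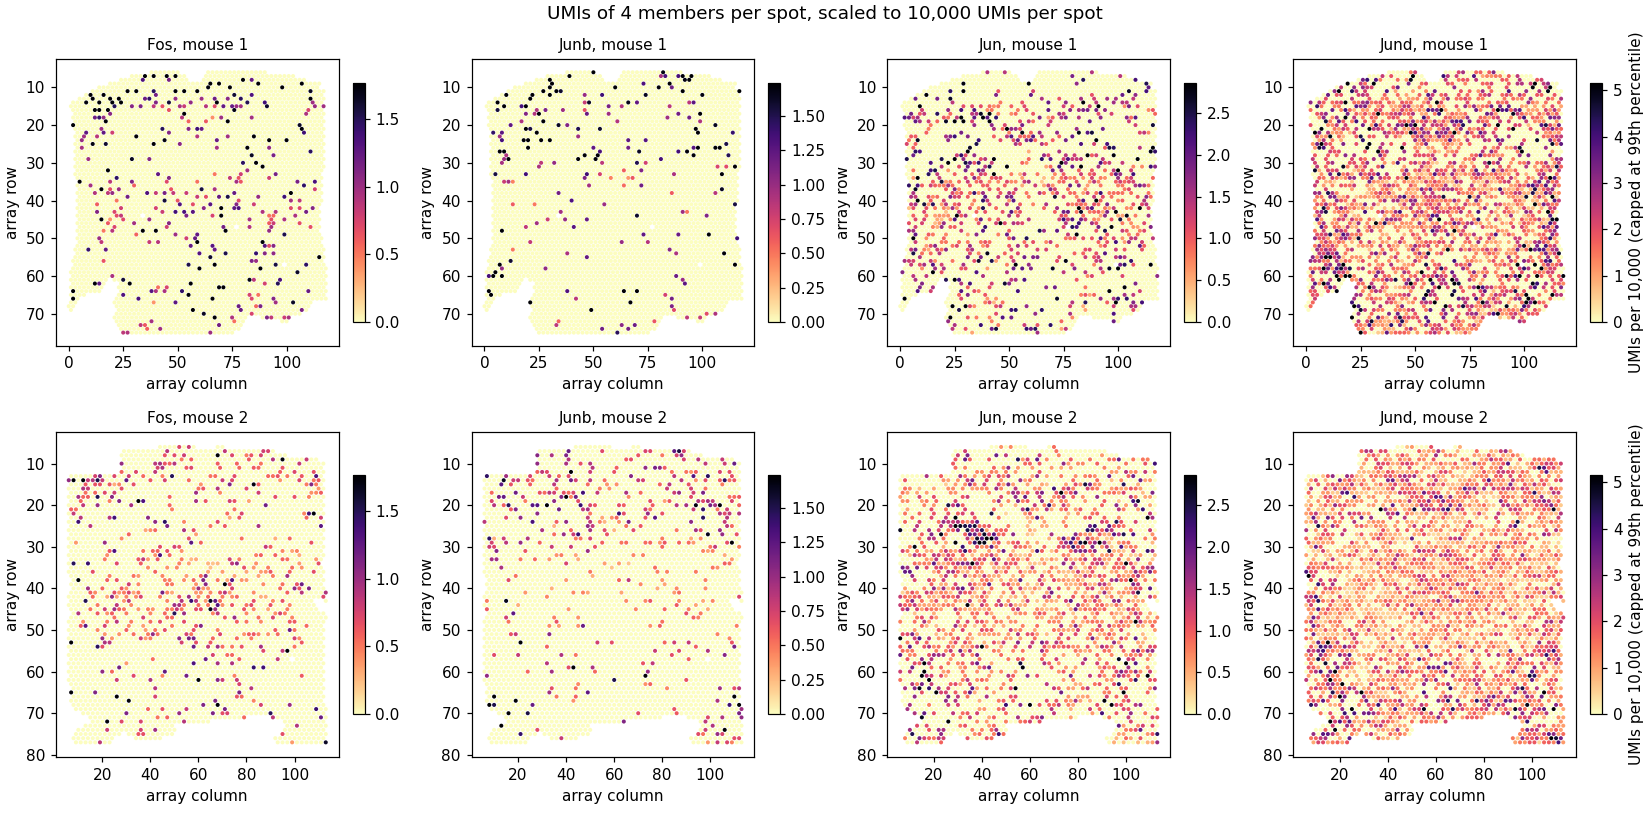
Spots of both sections placed by array column and array row, coloured by UMIs of Fos, Junb, Jun or Jund relative to all UMIs of the spot, with colours capped at a high percentile as the colour bar says. In mouse 2 the darkest Jun spots gather in a patch on each side at the rows of the dentate granule area, where Jun was at 132.9 CPM, and Junb spots are sparse in the rows of the thalamus, where it averaged 1.98 and 4.80 CPM.

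Fos, the partner most used as a mark of recent firing, was highest in the Lamp5-Dkkl1 area, at 26.3 CPM in mouse 1 and 22.6 in mouse 2 (mean 24.5 ± 2.58 SD, n = 2 mice, as for all means here). Layer 5 followed at 22.9 ± 1.27 and the midline thalamus at 21.1 ± 4.41, then the upper layers at 17.3 ± 3.27 and layer 6 at 16.9 ± 0.467. Cortical layers and the midline thalamus thus held the 5 highest places. When only spots whose best area score led the next by at least 0.5 were kept, the Lamp5-Dkkl1 area held 3 and 2 UMIs of Fos, at 17.6 and 7.20 CPM. Layer 5 was then highest at 30.3 and 23.6 CPM, and the Lamp5-Dkkl1 area no longer stood above both mice of the relay thalamus (10.6 and 13.1). Relay thalamus (12.3 ± 1.78), lateral hypothalamus (11.3 ± 4.19), medial hypothalamus (11.1 ± 3.35), Spink8 (9.82 ± 2.83) and reticular thalamus (9.71 ± 0.709) came next. Hippocampal neuropil (9.08 ± 0.0665), ependyma (8.39 ± 0.186), Hpca-Neurod6 (8.33 ± 0.688), dentate granule (7.60 ± 4.69), white matter (7.29 ± 1.58), habenula (7.16 ± 3.39), meninges (6.68 ± 0.912) and choroid plexus (4.62 ± 1.32) were the lowest. The ranges of the mice overlapped for 13 of the 17 neighbouring pairs in this order, so most single steps are within the spread.

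Fosb, whose short splice form gives the long-lived protein ΔFosB, was highest in the upper layers at 10.7 and 11.3 CPM, from 6 UMIs in each mouse. Layer 6 (6.98 ± 0.615), layer 5 (5.86 ± 0.979) and Hpca-Neurod6 (5.44 ± 1.65) followed, and relay thalamus was lowest at 0.681 and 0.776 CPM. Of the 18 areas, 15 of 17 neighbouring pairs overlapped. No UMI of Fosb was seen in the choroid plexus of mouse 1, which allows up to 3.69 CPM (3 counts), or in the ependyma of mouse 2, which allows up to 3.54.

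Fosl2 was highest in the Lamp5-Dkkl1 area, at 18.4 and 21.1 CPM, above both mice of every other area. The meninges came second at 12.0 ± 1.48, ahead of layer 5 (11.4 ± 2.18), layer 6 (10.997 ± 2.93), dentate granule (10.5 ± 1.33), hippocampal neuropil (10.5 ± 0.337), upper layers (10.01 ± 3.53) and Spink8 (9.41 ± 3.02). Neighbours among these 7 areas overlapped. The lowest place was again relay thalamus, at 1.91 and 2.61 CPM.

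Junb, a Jun-family protein that dampens Jun's activity at many targets, was highest in the Spink8 area at 18.2 and 30.2 CPM. Upper layers (18.2 ± 4.53), hippocampal neuropil (15.9 ± 2.25), layer 6 (15.3 ± 3.90), meninges (14.8 ± 2.41) and layer 5 (14.1 ± 3.77) were next, and the 3 thalamic areas were among the lowest 4. Reticular thalamus had 0.614 and 5.72 CPM, from 1 and 14 UMIs, and midline thalamus 2.04 and 4.23, from 5 and 25. All 17 neighbouring pairs overlapped, so no step of the order was larger than the spread between the mice. Junb had no UMI in the choroid plexus of mouse 1, which allows up to 3.69 CPM.

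Jun gave a different order. Dentate granule was highest at 76.4 CPM in mouse 1 and 132.9 in mouse 2, and both mice exceeded every other value of Jun. Meninges (54.5 ± 3.16), white matter (53.4 ± 7.55) and relay thalamus (48.9 ± 5.19) followed. The lowest were layer 5 (23.6 ± 6.77), Spink8 (22.6 ± 1.44) and Lamp5-Dkkl1 (21.6 ± 2.86), areas that ranked high for Fos or Junb.

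Jund was the most even, with a highest mean 1.96 times its lowest. White matter was highest at 186.8 and 149.5 CPM, above both mice of layer 6 (130.1 ± 3.70). Between layer 6 and layer 5 (92.9 ± 5.31) all neighbouring areas overlapped. Dentate granule (88.2 ± 1.25), Hpca-Neurod6 (86.2 ± 12.1) and relay thalamus (85.7 ± 10.4) were lowest.

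**Figure D2:**
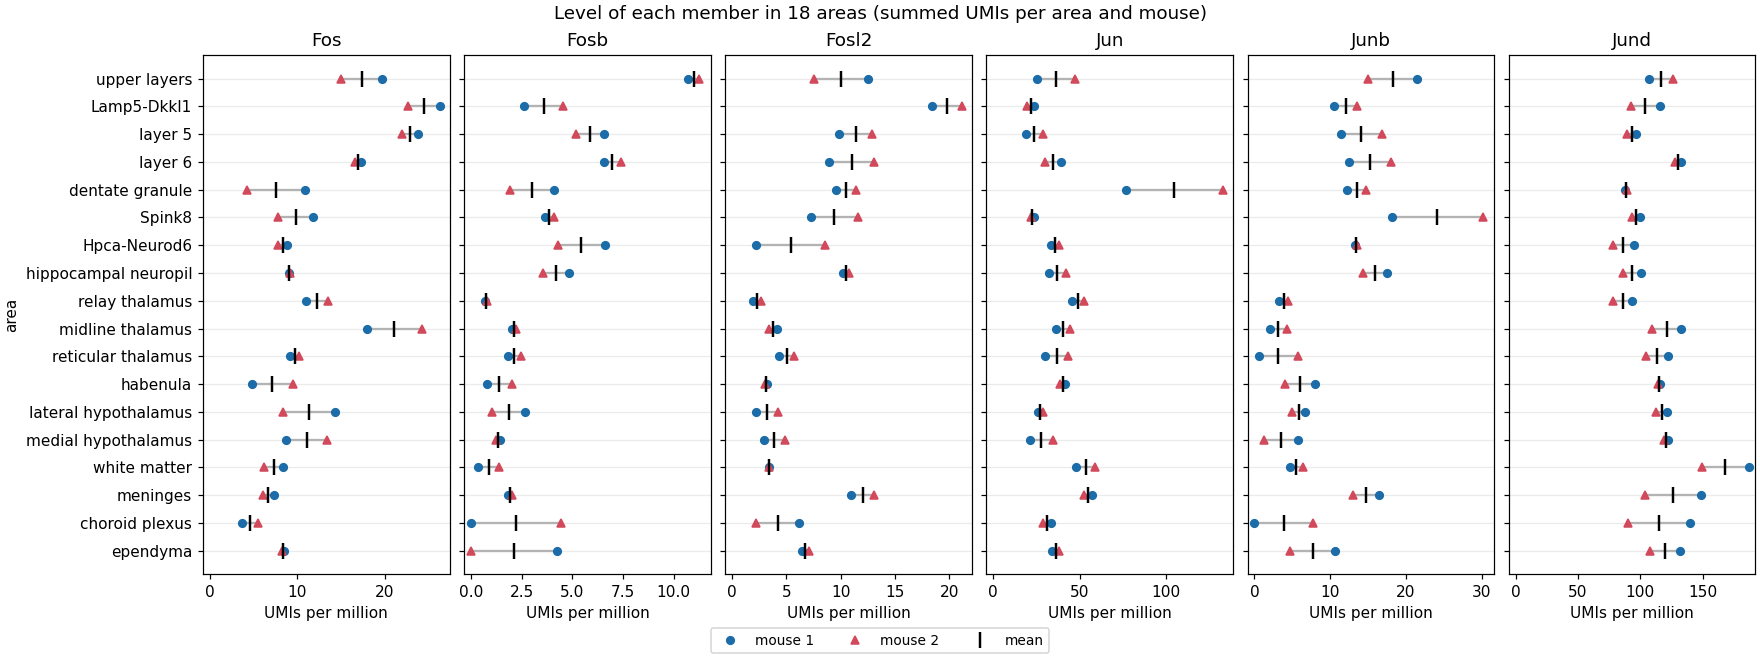
Level of each gene in 18 areas, as CPM of the summed UMIs of an area; circles are mouse 1, triangles mouse 2 and black bars their mean, with a grey line between the mice. Each panel has its own scale from 0. Jun in the dentate granule area, at 76.4 and 132.9 CPM, and Fosl2 in the Lamp5-Dkkl1 area, at 18.4 and 21.1, stand apart from their other areas.

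Cortical layers differed from the thalamus in 5 of the 6 genes. The mean over the 4 cortical areas was 13.98 and 15.85 CPM for Junb against 1.98 and 4.80 over the 3 thalamic areas, 12.4 and 13.7 against 3.43 and 3.91 for Fosl2, and 6.61 and 7.10 against 1.52 and 1.81 for Fosb. For these 3 genes the lowest cortical value of either mouse was above the highest thalamic one. For Fosb these values were 2.63 and 2.45 CPM, and the cortical one rested on 1 UMI. How many of all genes separate in this way was not counted. In the fit over all areas (quasi-likelihood test of edgeR, p adjusted by Benjamini-Hochberg), Fosb was higher in cortex by 2.12 ± 0.42 on the log2 scale (± SE, 4.34-fold, adjusted p = 1.83e-05), Junb by 2.11 ± 0.27 (4.32-fold, adjusted p = 2.49e-10) and Fosl2 by 1.96 ± 0.24 (3.88-fold, adjusted p = 9.03e-11). Fos averaged 21.7 and 19.1 CPM in cortex and 12.7 and 15.99 in the thalamus, a difference of 0.61 ± 0.17 (1.52-fold, adjusted p = 0.00257), and its groups overlapped through the midline thalamus. Jun went the other way, with 26.7 and 31.3 CPM in cortex and 37.1 and 46.8 in the thalamus (log2 difference -0.50 ± 0.12, adjusted p = 0.000548). Jund differed by 0.16 ± 0.07 and did not pass (adjusted p = 0.0775). Over all genes tested 43.0% passed, against 5 of these 6.

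Each of the 5 differences had one sign in both mice. Fosb had 1.61 in mouse 1 and 1.59 in mouse 2 on the log2 scale with a prior count of 2, Fosl2 1.67 and 1.61, Junb 2.50 and 1.596, Fos 0.82 and 0.35 and Jun -0.43 and -0.59. Fos did not pass when spots whose best area score led the next by less than 0.5 were left out (0.31, adjusted p = 0.378), Fosb did not when mouse 2 was thinned to the depth of mouse 1 (1.63, adjusted p = 0.0554), and Jun did not with areas from Leiden clusters (-0.29, adjusted p = 0.165). Of other early response genes, which are switched on by the same stimuli, 11 of 17 tested were higher in cortex and 0 lower, led by the transcription factor genes Egr3 (4.37 ± 0.13, adjusted p = 4.27e-43) and Egr4 (3.98 ± 0.23, adjusted p = 9.24e-26). The summed level of the list was 612.5 to 936.6 CPM in cortical areas and 158.9 to 241.9 in thalamic ones. All 8 oligodendrocyte markers were lower in cortex, with summed levels of 1669 to 13698 CPM against 6914 to 18520. Of 11 endothelial and mural markers 5 were lower, with 186.7 to 305.0 against 306.4 to 395.7 CPM. Of 8 neuron markers 5 were higher and 2 lower, and their summed levels overlapped (3902 to 5303 against 3994 to 5278 CPM). The part of these other cells in the differences was not tested.

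Other bZIP genes, whose proteins can pair with or compete with AP-1, gave 3 calls among the 10 tested of 15 listed, among them Maf (1.41 ± 0.17, adjusted p = 6.29e-11), which was higher in cortex. Of 22 kinases and factors upstream of the AP-1 genes, 10 were higher and 5 lower, with a median of -0.01. The largest was Mef2c, a calcium-regulated activator, at 2.34 ± 0.08 (adjusted p = 2.43e-40). The median over all genes tested was -0.06 and that of the 6 AP-1 genes 1.28.

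Within the cortex none of the 6 genes passed between upper layers and layer 6, where 5.99% of genes did. By edgeR the unadjusted p was 0.248 for Fosb, the smallest of the 6. Fosb was at 10.7 and 11.3 CPM in the upper layers and 6.55 and 7.42 in layer 6, with no overlap of the mice, and differed by 0.68 ± 0.59 (adjusted p = 0.619). Between the Lamp5-Dkkl1 area and layer 5 also none passed, where 0.604% of genes did. Fosl2, at 18.4 and 21.1 CPM against 9.83 and 12.9, had the smallest unadjusted p (0.0958) with a difference of 0.69 ± 0.41 (adjusted p = 0.722). For Fos the difference was 0.00 ± 0.36, and -1.36 (adjusted p = 0.539) with the wider score lead. The Lamp5-Dkkl1 area held 50 spots in mouse 1 and 47 in mouse 2, so Fos rested on 10 and 15 UMIs there and Fosb on 1 and 3.

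Within the thalamus Fos and Jund were higher in the midline area than in the relay area and Jun was lower, 3 of 6 against 21.5% of all genes. Fos was at 17.99 CPM in mouse 1 and 24.2 in mouse 2 in the midline area, from 44 and 143 UMIs, and at 11.03 and 13.5 in the relay area. The mice did not overlap, and the difference was 0.68 ± 0.18 (1.597-fold, edgeR adjusted p = 0.0022). Jund was at 132.9 and 109.1 CPM against 93.0 and 78.3, a difference of 0.36 ± 0.10 (adjusted p = 0.00418). Jun was at 36.0 and 44.5 CPM against 45.2 and 52.6, a difference of -0.41 ± 0.13 (adjusted p = 0.0149), with the higher midline mouse just under the lower relay mouse. Fosb, at 2.04 and 2.20 against 0.681 and 0.776 CPM, differed by 1.33 ± 0.56 and did not pass (adjusted p = 0.0778). It did pass when only these areas were fitted (1.39, adjusted p = 0.0207).

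The thalamic calls depended on the fit. Without the mouse as a replicate block, Jun (-0.40, adjusted p = 0.144) and Jund (0.36, adjusted p = 0.177) did not pass. With DESeq2 neither Fos (0.68, adjusted p = 0.0679) nor Jun (-0.39, adjusted p = 0.102) did, and with Leiden areas neither Fos (0.53, adjusted p = 0.117) nor Jund (0.23, adjusted p = 0.203) did. Other early response genes went both ways here, with 3 of 17 higher and 4 lower; Sik1 (2.07 ± 0.47, adjusted p = 0.000465) and Nr4a2 (1.89 ± 0.32, adjusted p = 2.33e-06) were the largest changes. Of late activity genes 4 of 13 were higher and 1 lower, led by Penk (1.41 ± 0.26, adjusted p = 1.14e-05) and Bdnf (1.08 ± 0.16, adjusted p = 1.44e-07). Oligodendrocyte markers were lower in the midline area for 5 of 8. Astrocyte markers were higher for 2 of 7 and lower for 3, and neuron markers higher for 2 of 8 and lower for 2. Lower were also 1 of 8 microglia markers and 1 of 11 endothelial and mural markers. The part of these cells was not tested.

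In the habenula, which sends signals from the forebrain to midbrain monoamine neurons, Fos was at 4.76 and 9.56 CPM, from 6 and 19 UMIs. The 3 thalamic areas averaged 12.7 and 15.99 CPM, and the higher habenula value lay within their range. Fos was lower by 1.01 ± 0.30 on the log2 scale (2.01-fold, edgeR adjusted p = 0.0056), 1 of 6 genes against 31.2% of all genes, and both mice had this sign (-1.32 and -0.75). It did not pass with mouse 2 thinned (-0.68, adjusted p = 0.13). The other 5 genes gave adjusted p between 0.243 and 0.995 in the edgeR fit. Jun was at 41.2 and 38.7 CPM and differed by -0.24 ± 0.15 (adjusted p = 0.243), but passed with Leiden areas (-0.46, adjusted p = 0.0428). Other early response genes went both ways: 5 of 17 were higher in the habenula and 4 lower, with Nr4a2 higher by 5.92 ± 0.17 (adjusted p = 1.14e-44) and Sik1 by 2.90 ± 0.40 (adjusted p = 9.39e-09). Neuron markers were higher for 1 of 8 and lower for 5, and summed to 2929 and 3173 CPM there against 3994 to 5278 in the thalamic areas. All 8 oligodendrocyte markers were lower, with 6350 and 6587 against 6914 to 18520 CPM, and of 7 astrocyte markers 3 were higher and 1 lower. The part of these cells was not tested.

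In the hypothalamus Jun was lower than in the thalamus and Jund higher, 2 of 6 genes against 42.2% of all genes. Jun averaged 23.5 and 31.4 CPM over the lateral and medial areas and 37.1 and 46.8 over the thalamus, a difference of -0.55 ± 0.13 (1.46-fold, edgeR adjusted p = 0.000328). Jund averaged 122.1 and 115.4 CPM against 116.01 and 97.3, a difference of 0.27 ± 0.08 (adjusted p = 0.00278). Both had one sign in both mice, with groups that overlapped, and both passed without the medial area. Jund did not pass without the replicate block (0.28, adjusted p = 0.0581). Fos, Fosb, Fosl2 and Junb did not pass (adjusted p between 0.262 and 0.933), and Junb pointed apart in the mice (1.57 and -0.66). Junb rested on 8 and 1 UMIs in the medial area. Of other early response genes 1 of 17 was higher and 6 lower. The largest changes were in Dusp6 (-1.48 ± 0.21, adjusted p = 8.57e-09) and Dusp1 (-1.30 ± 0.22, adjusted p = 8.13e-07), phosphatases that switch off MAP kinases. Late activity genes leaned the other way, with 7 of 13 higher and 2 lower, led by Penk (3.38 ± 0.115, edgeR adjusted p = 9.8e-40). Neuron markers were higher for 2 of 8 and lower for 4. They summed to 2019 to 2955 CPM in the hypothalamus, under the 3994 to 5278 of the thalamus. All 8 oligodendrocyte markers were lower, and so were 5 of 11 endothelial and mural markers (191.4 to 297.6 against 306.4 to 395.7 CPM) and 1 of 8 microglia markers (232.7 to 276.7 against 280.5 to 359.0). The part of these cells was not tested.

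In the hippocampus Jun was the 1 gene of 6 that passed between the dentate granule area and the Spink8 and Hpca-Neurod6 areas, against 13.6% of all genes. Its 76.4 and 132.9 CPM, from 56 and 279 UMIs, stood against 21.6 to 37.8 CPM in the other areas. It was higher by 2.03 ± 0.16 on the log2 scale (4.09-fold, edgeR adjusted p = 1.66e-17), with 1.57 in mouse 1 and 2.19 in mouse 2. It passed under all 8 alternatives with a test, at 1.90 to 2.31. The other early response genes leaned the other way, with 6 of 17 lower in the dentate granule area and Btg2, an antiproliferative gene, the 1 higher (2.51 ± 0.34, adjusted p = 1.62e-08). The kinase gene Mapk3 (ERK1) was higher by 1.09 ± 0.14 (adjusted p = 5.4e-09). Fos was at 10.9 and 4.29 CPM in the dentate granule area and had opposite signs in the mice (0.22 and -0.74). Neuron markers were higher for 2 of 8 and lower for 5. They summed to 2507 and 3107 CPM there, under the 3167 to 6196 of the other areas, and all 8 oligodendrocyte markers were lower. Astrocyte markers were higher for 3 of 7 (1164 and 1202 against 934.3 to 1062 CPM). Of 11 stress and RNA quality genes 2 were lower and 0 higher (3233 and 3395 against 3856 to 4755 CPM). The part of these lists was not tested.

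White matter split the family most sharply, and all 6 genes passed against cortical layers, where 47.5% of all genes did. Fos was at 8.40 and 6.17 CPM, Fosb at 0.336 and 1.39, Fosl2 at 3.36 and 3.38 and Junb at 4.70 and 6.37. Each of these was below every cortical value. Only 2 white matter values stand against 8 cortical ones, and how many of all genes separate in this way, up or down, was not counted. Fosb rested on 1 and 7 UMIs there and differed by -2.44 in mouse 1 and -1.61 in mouse 2 with the prior count of 2. The 4 genes were lower by 1.33 ± 0.24 (edgeR adjusted p = 2.97e-06), 2.47 ± 0.56 (adjusted p = 0.000141), 1.76 ± 0.30 (adjusted p = 1.04e-06) and 1.24 ± 0.30 (adjusted p = 0.000338) on the log2 scale. Jun, at 48.0 and 58.7 CPM, and Jund, at 186.8 and 149.5, were above every cortical value, higher by 1.11 ± 0.14 (2.16-fold, adjusted p = 2.05e-10) and 0.78 ± 0.09 (1.72-fold, adjusted p = 4.56e-12). All 6 calls held under all 9 alternatives with a test. Neuron markers were lower for 6 of 8 and higher for 1. They summed to 1601 and 1828 CPM against 3902 to 5303 in cortex, and microglia markers to 629.6 and 727.0 against 211.0 to 346.4. Endothelial and mural markers were higher for 10 of 11 (397.4 and 417.4 against 186.7 to 305.0 CPM) and astrocyte markers for 5 of 7 (1746 and 1784 against 1054 to 1313). Of 11 stress and RNA quality genes 3 were higher and 4 lower (2719 and 2846 against 3507 to 4051 CPM). The oligodendrocyte list is the marker set that chose this area. Of the early response genes 11 of 17 were lower and 0 higher. The part of each list was not tested.

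The meninges shared 2 of these differences, against 29.2% of all genes. Fos was at 7.33 and 6.04 CPM, from 4 and 6 UMIs, below every cortical value (-1.65 ± 0.42, edgeR adjusted p = 0.00146), and Jun at 56.8 and 52.3, above every one (0.89 ± 0.21, adjusted p = 0.000575). Fosl2, at 10.99 and 13.1 CPM, and Junb, at 16.5 and 13.1, lay within the cortical range, with differences of -0.11 ± 0.37 and -0.14 ± 0.40. Fosb was below every cortical value at 1.83 and 2.01 CPM but did not pass (adjusted p = 0.0987). How many of all genes lie outside the cortical range in the meninges was not counted. With Leiden areas neither Fos (-1.14, adjusted p = 0.194) nor Jun (0.06, adjusted p = 0.944) passed, and Fos did not without spots of a narrow score lead (-1.35, adjusted p = 0.067). All 11 endothelial and mural markers were higher in the meninges, with summed levels of 798.4 and 1081 CPM against 186.7 to 305.0. All 8 oligodendrocyte markers were higher too (15489 and 15922 against 1669 to 13698 CPM), as were 6 of 8 microglia markers (553.2 and 575.0 against 211.0 to 346.4) and 3 of 7 astrocyte markers (1793 and 2143 against 1054 to 1313). Of 8 neuron markers 6 were lower and 1 higher (2190 and 2699 against 3902 to 5303 CPM). The higher was Slc17a6 (1.58 ± 0.175, edgeR adjusted p = 8.38e-12), which was lower in cortex than in thalamus (-2.91 ± 0.096). No position rule was set for meninges spots, so they need not lie over cortex. Of 11 stress and RNA quality genes 4 were lower and 3 higher (2885 and 3076 against 3507 to 4051 CPM). The part of these lists was not tested.

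**Figure D3:**
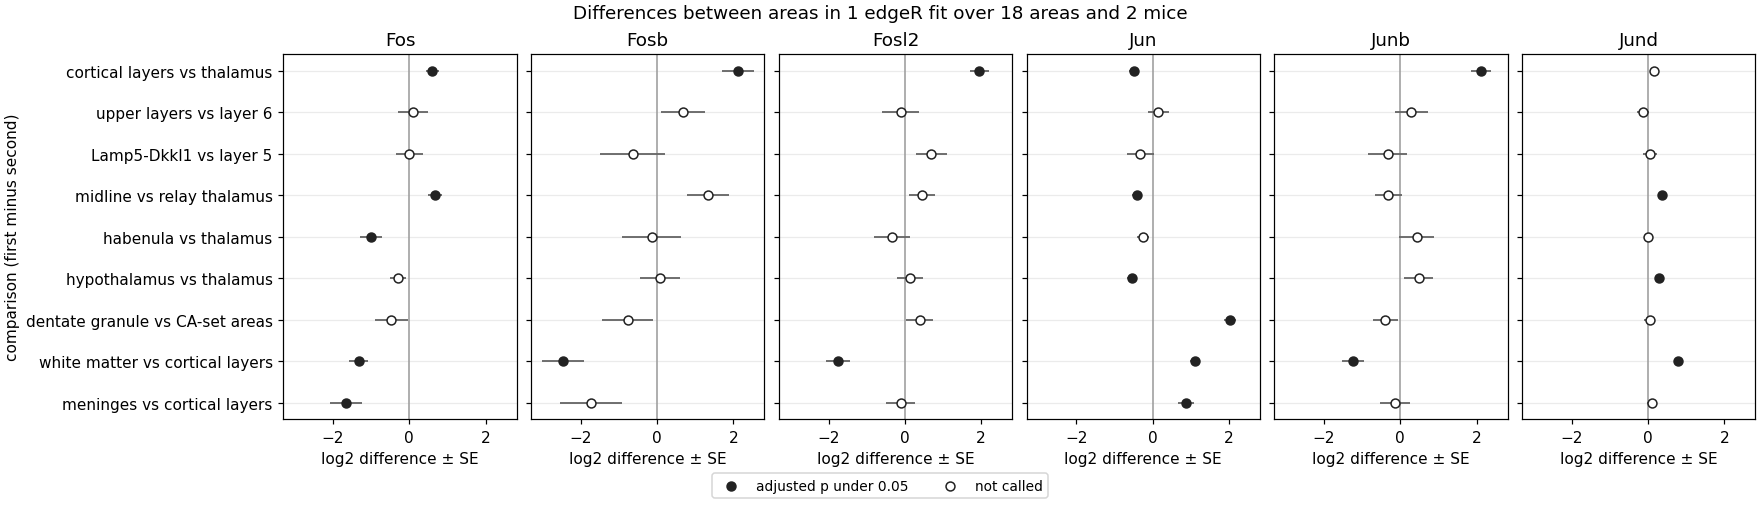
Log2 differences of the 6 genes in 9 comparisons of areas, first minus second, with bars of 1 SE; filled points passed an adjusted p of 0.05 and open points did not. The Fos, Fosb, Fosl2 and Junb panels have white matter to the left of 0, at -1.33, -2.47, -1.76 and -1.24, and the Jun and Jund panels have it to the right, at 1.11 and 0.78.

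Image left and right were compared because the series' text speaks of an ipsilateral side, but the sources used here do not say which image side was injected. They also do not say whether it was the same image side in both mice. The fit took image left as 1 side in both, so a difference that followed the injected side could cancel. None of the 6 genes passed in hippocampal areas, cortical layers or thalamus, where 0.0456%, 0.0152% and 0.0913% of genes did. In cortical layers Fos was at 25.6 CPM on the left and 15.6 on the right in mouse 1, and 22.7 and 15.8 in mouse 2. Left was higher in both mice, by 0.61 ± 0.21 on the log2 scale, but this did not pass (edgeR unadjusted p = 0.00635, adjusted p = 0.756). Jun in hippocampal areas was at 41.0 against 34.8 CPM and at 62.4 against 51.8, left higher in both mice by 0.29 ± 0.12 (unadjusted p = 0.0168, adjusted p = 0.948). In all, 2 of the 18 gene and area group pairs had an unadjusted p under 0.05 in the edgeR fit, as did 668, 689 and 600 of the 13149 genes tested in hippocampal areas, cortical layers and thalamus. Thalamic Fos was at 11.8 and 12.7 CPM in mouse 1 and at 16.95 and 14.99 in mouse 2, with opposite signs.

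**Figure D4:**
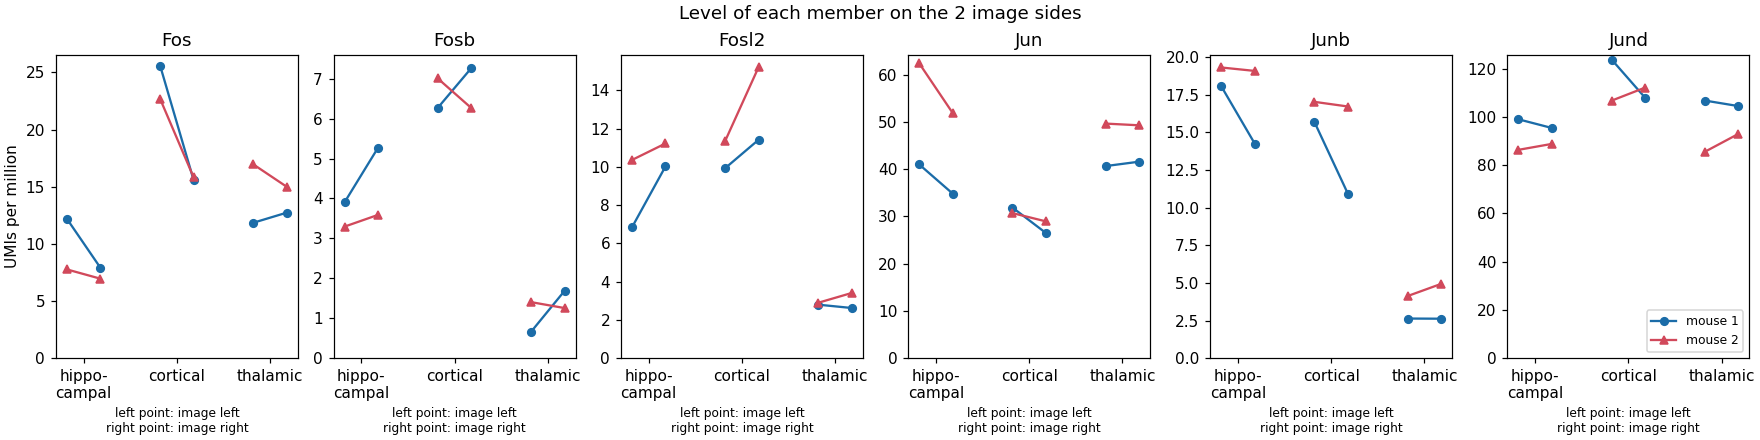
Level of each gene on image left and image right in 3 groups of areas, in CPM; a line joins the sides of 1 mouse, circles are mouse 1 and triangles mouse 2. Cortical Fos slopes down in both mice, from 25.6 to 15.6 and from 22.7 to 15.8, while thalamic Fos rises from 11.8 to 12.7 in mouse 1 and falls from 16.95 to 14.99 in mouse 2.

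Single spots were compared after each was thinned to 3000 UMIs, which left 3646 spots in mouse 1 and 3540 in mouse 2 and dropped 66 and 8 shallower ones. Fos was then seen in 3.26% of spots (Wilson 95% interval 2.73 to 3.89) in mouse 1 and 3.36% (2.82 to 4.01) in mouse 2, against 8.92% and 15.9% unthinned. Jun was seen in 10.3% and 12.9% and Jund in 29.1% and 26.4%. These intervals cover counting error only, and none of the areas is known to lack these genes, so background could not be set from an area. Jun's share in the dentate granule area was 16.4% (10.5 to 24.6) in mouse 1 and 29.3% (22.0 to 37.8) in mouse 2. Fos in the midline thalamus was seen in 4.44% (2.56 to 7.61) and 7.77% (5.27 to 11.3) of spots and in the relay thalamus in 2.86% (1.86 to 4.37) and 3.19% (2.13 to 4.73).

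At this depth 58.6% of spots in mouse 1 and 58.7% in mouse 2 held none of the 6 genes, 35.6% and 34.6% held 1, and 5.40% and 6.19% held 2. In mouse 2 a single spot, in the hippocampal neuropil, held 4 of the genes. Jun and Jund were found together in 112 spots of mouse 1, where their separate shares would give 109.4, and in 123 of mouse 2 against 120.8. Their ratios, 1.02 in both mice, were 1.014 and 1.025 within areas. Fos and Jund shared 44 spots against 34.6 and 37 against 31.5, ratios of 1.27 and 1.18. Fos and Jun, the textbook AP-1 pair, shared 15 against 12.3 and 13 against 15.4, so the mice fell on opposite sides of the level their shares give. Fos and Junb shared 5 spots against 2.81 and 6 against 3.43, and the other pairs with Fosb or Fosl2 shared 1 to 23 spots. At 5000 UMIs per spot the Fos and Jund ratios were 1.11 and 0.946, on either side of 1. In counts this sparse, and with several cells in a spot, these ratios describe the sections and give no finding on pairing in cells.

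The genes closest to each member over the 18 areas were ranked by the lower of the mice's Pearson r of log2 CPM. Fos was closest to Fgf12 (r = 0.84 and 0.88), Vsnl1 (0.89 and 0.79) and Sncb (0.80 and 0.79), then Prkar1b and Osbpl8. Fosb was closest to Plcb1 (0.80 and 0.78), 1110008P14Rik, Homer1, Cacng3 and Egr3, and Fosl2 to Cdk17 (0.83 and 0.75), Dgkd, Fam163b, Cacng3 and Egr3, so Cacng3 and Egr3 are in both lists. Junb was closest to Gria2 (0.79 and 0.80), Upp2, Dab1, Bcl11a and Coro1a. Jun was closest to Prox1 (0.67 and 0.79), a dentate granule marker used to choose that area, then Limch1, Mapk3, Dock10 and Sri. Jund was closest to Pcbp4 (0.81 and 0.76), Dusp26, Cldnd1, Ncam1 and Ebp. Among the members Fosb and Junb were the most alike (r = 0.72 and 0.67), Fos and Jun ran opposite (-0.40 and -0.45), and Jun and Jund were near 0 (0.15 and 0.04). All these values are across 18 areas of 1 section each, which share library and depth, and are descriptions.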

How the data were processed

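Per the labels, polyadenylated RNA of 1 fresh-frozen coronal section from each of 2 mice was captured on Visium slides; the 10 µm sections were permeabilised for 12 min on a capture area 6.5 mm across. The deposited values are UMI counts of each gene in each spot. The file headers name Space Ranger 1.3.1, and the submitters' processing notes name mm10. The gene annotation is not stated in these sources.

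Spots with at least 500 UMIs were used, 3712 and 3548, with medians of 7557 and 14663 UMIs and 13.3% and 15.4% of UMIs from mitochondrial genes. The sections shared 3366 array barcodes, as slides of 1 design do. Each of 18 marker sets was scored as the mean z of its genes over a spot and its neighbours. A spot took the best area if its score was at least 0.5; cortical and hippocampal areas were kept above the middle of a section only and hypothalamic areas below it. This rule was set after the files were seen, from positions and markers. The members, lists and comparisons were chosen with earlier results of these data known. The midline was the axis of best mirror symmetry of the areas; 67.6% and 80.1% of mirrored spots had the same area.

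UMIs were summed per mouse and area. Counts were fitted with edgeR 4.0.16 in R 4.3.3 (filterByExpr, TMM, glmQLFit) in 1 model of 18 areas with the mouse as a block, for 13078 genes and 17 residual degrees of freedom. Sides had their own model, for 13149 genes and 3 residual degrees of freedom. An adjusted p (Benjamini-Hochberg over all genes) under 0.05 was called. Because of TMM a fitted fold is not the plain ratio of CPM. The SE was derived from the F statistic and rests mostly on spread shared between genes. With 2 mice, p-values measure only the spread between these sections and their areas. The block comes from the animals, since each mouse gave all its areas. Log2 values of a single mouse were computed with a prior count of 2. The method was run on simulated counts with 200 changed genes and a dispersion (spread between counts) of 0.02, where the fit gave 0.00414. These counts held no mouse effect, and apart from depth the areas differed only in the changed genes. They therefore do not mirror the sections. Alternatives were DESeq2 1.42.0, its size factors, no filter, no replicate block, Leiden areas (scanpy 1.11.5, resolution 2), a score lead of at least 0.5, mouse 2 thinned to the total of mouse 1, only the areas compared, no spots near the midline, and each mouse alone. Leaving out the medial hypothalamus, or the upper layers and the Lamp5-Dkkl1 area, was added after seeing the data. Image files and scale factors were not used here.

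Named genes were the 6 members, up to 2 genes per list and comparison with the largest change past the threshold, and the 5 genes most like each member among those with at least 20 CPM. The lists were other bZIP genes, upstream kinases and factors, other early response genes, late activity genes, stress genes, and markers of endothelium, microglia, astrocytes, oligodendrocytes and neurons. Between cortex and thalamus, 3 of 11 stress genes were higher and 4 lower, 0 of 8 microglia markers higher and 1 lower, 2 of 7 astrocyte markers higher and 3 lower, and 6 of 13 late activity genes higher and 1 lower. A gene that this rule names among the bZIP genes is not reported here. Promoters came from RefSeq (GRCm38.p6), where all 6 members matched by symbol.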

Additional observations from a re-analysis of the deposited data

Results flagged for a closer look

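Junb was picked out because the log2 values of its difference between image left and right had opposite signs in the thalamus and in the other groups, in both mice. In mouse 1 the thalamic value was near 0, and plain CPM did not share its sign. Junb was there at 2.633 CPM on the left (16 UMIs) and 2.622 on the right (14 UMIs). On the log2 scale, left minus right, it was 0.309 in mouse 1 and 0.066 in mouse 2 in hippocampal areas, 0.462 and 0.063 in cortical layers, and -0.013 and -0.239 in the thalamus. The difference of differences did not pass in edgeR's quasi-likelihood fit: 0.34 between hippocampal areas and thalamus (unadjusted p = 0.313, adjusted p = 0.988) and 0.41 between cortical layers and thalamus (unadjusted p = 0.258, adjusted p = 0.983). Groups of 2 mice are too small to look for an outlying sample.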

How the results depend on the processing

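Of 20 calls on the 6 genes, 10 passed under all their alternatives with a test, and no call changed direction under any alternative run. The number of genes called between midline and relay thalamus was 3 and became 1 with DESeq2, 1 without the replicate block and 1 with Leiden areas. For the habenula it was 1 and became 2 with Leiden areas and 0 with mouse 2 thinned, where Fos had an adjusted p of 0.13. For the hypothalamus it was 2 and became 1 without the replicate block. For the meninges it was 2 and became 0 with Leiden areas and 1 with the wider score lead. Leaving out the replicate block ended 3 calls, given in the report, and no other. Jund passed between cortex and thalamus when only those areas were fitted (0.17, adjusted p = 0.0301). With a single mouse, which gives values and no test, no call changed sign. The single-mouse value lay farther from the fitted one than the spread between the mice for 7 of the 20 calls without replicate 1 and for 10 without replicate 2. Single-mouse values use a prior count of 2 and the fit does not, so they can differ where the mice agree. Fosb between cortex and thalamus was 1.614 and 1.585 in single mice and 2.117 in the fit. These counts therefore do not measure how far a call depends on 1 mouse. Causes were not tested.

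The remaining sign changes were all in differences that did not pass, on the log2 scale. Between upper layers and layer 6, Fos became -0.04 with the wider lead and -0.119 thinned, and Fosl2 0.063 thinned. Between the Lamp5-Dkkl1 area and layer 5, Fos became -0.002 without the filter, -0.001 without the replicate block, -1.359 with the wider lead and -0.059 thinned, and Jund 0.0 with the wider lead and -0.125 thinned; Leiden clusters gave no such area, so that value was not run. In the habenula, Fosb became 0.24 thinned, and Jund 0.042 with DESeq2 size factors, 0.043 with DESeq2, 0.002 with the wider lead, 0.006 thinned and 0.029 with only the areas compared. In the hypothalamus, Fosb became -0.221 with the wider lead and Fosl2 -0.013 thinned. In the meninges, Fosl2 became 0.121 with the wider lead, 0.087 thinned and 0.044 without the upper layers and Lamp5-Dkkl1 area, and Jund -0.385 with Leiden areas. Between sides, hippocampal Jund became -0.008 thinned and 0.0 without midline spots, and cortical Fosb -0.01 with DESeq2, -0.147 thinned and -0.027 without midline spots.

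Depth limits the sparse genes most: Fosb rested on 1 to 6 UMIs per mouse in the upper layers and the Lamp5-Dkkl1 area and on 1 and 7 in white matter, and Fos on 4 and 6 in the meninges. Junb rested on 1 and 14 in the reticular thalamus. Each comparison rests on 2 mice with different genotype labels, and no untreated section was analysed here.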
